A study of Schizosaccharomyces pombe with 10 samples.

Results

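The gene windows with the highest NoIP signal in a fission yeast chromatin immunoprecipitation sequencing (ChIP-seq) series are described here: which genes they cover, which sequences they hold, and how Myo1-GFP signal behaved in them. Myo1 is the class I myosin of Schizosaccharomyces pombe, a motor of the endocytic actin patch, and was carried as a GFP fusion. Cells were held for 4 h at 30°C in YES medium low in phosphate (YES LowPi) or in normal YES (high phosphate) and fixed with 3% formaldehyde for 30 min. There were 3 Myo1-GFP libraries in low phosphate, 3 Myo1-GFP libraries in high phosphate, 2 NoIP libraries in low phosphate and 2 NoIP libraries in high phosphate. The NoIP libraries carry the strain label wild-type, the Myo1-GFP libraries the strain label Myo1-GFP, and no other allele is given for either. The same pulldown with GFP-binding beads is written for every library, so the labels leave unsaid whether NoIP was a pulldown from untagged cells or chromatin with no pulldown. Nothing in the labels says that replicates came from separate cultures, and p-values therefore measure the spread between these libraries, which may be technical.

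The signal of each 200 bp window, taken every 100 bp, was put on the scale log2(value + 1) minus the median window of its library, so that 0 is the typical window of a library and 1 is 2-fold above it. The term level below means a value on this scale. A window could be chosen if it carried a gene ID other than that of a non-coding RNA, tRNA or rRNA and lay outside the centromeres and the chromosome ends. Of 126317 windows, 100471 qualified, and the 1005 with the highest mean over the 4 NoIP libraries, the top 1%, were kept. Their NoIP levels are thus the choice itself and are given as a description. Where the smallest step of a library is read as 1 read, the median window held 64 to 311 reads in 8 libraries. It held 11 reads in Myo1-GFP low phosphate replicate 3 and 8 reads in Myo1-GFP high phosphate replicate 3. Where these 2 shallow libraries decide a result, its value without them is given beside it.

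As background, ChIP-seq signal is never flat along a genome. In budding yeast, strongly transcribed genes are known to give signal with many unrelated baits, and repeated sequences can gain or lose signal through the placing of reads that match several sites. Some genes for glycolytic enzymes, translation factors and small nuclear and nucleolar RNAs are among the most strongly transcribed of a growing yeast cell, and this list is not complete. Transcription was not measured in these files, and its part in the NoIP signal was not tested.

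The chosen windows carried 188 gene IDs, 3.98% of the 4719 that could be chosen, and joined into 152 stretches with a median length of 500 bp. Their mean NoIP levels ran from 1.24 to 2.48 with a median of 1.43, which is 2.36-fold to 5.58-fold above the median window. They were unevenly spread over genes. The 35 genes with at least 10 chosen windows held 567 of them, or 56.4%, while 54 genes had 1 window each. Chromosome I held 526, chromosome II 295 and chromosome III 184, which was 1.15%, 0.823% and 0.975% of the windows that could be chosen there. The 3 windows just inside the limit lay in rpl701 (1.24114), Tf2-1 (1.24092) and SPCC1795.12c (1.24086), and the 3 just outside in rpl301 (1.24032), ole1 (1.24024) and rps2 (1.24005).

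The highest stretch of all ran from within fil1 into gir2 on chromosome III, at chrIII:814101-815300. Its best window lay just past the end of fil1 and its middle window, which carries no gene ID, lay wholly in the 378 bp between the 2 genes. That middle window is printed here because it holds a fragment of ribosomal RNA (rRNA) sequence. In the genome build ASM294v3, bases 814809 to 814940 match the 3 annotated 28S rRNA genes at the ends of chromosome III at 131 of 132 positions, and the longest unbroken match was 106 bases. Capitals mark the 131 matching bases of chrIII:814801-815000, plus strand.
fil1-gir2: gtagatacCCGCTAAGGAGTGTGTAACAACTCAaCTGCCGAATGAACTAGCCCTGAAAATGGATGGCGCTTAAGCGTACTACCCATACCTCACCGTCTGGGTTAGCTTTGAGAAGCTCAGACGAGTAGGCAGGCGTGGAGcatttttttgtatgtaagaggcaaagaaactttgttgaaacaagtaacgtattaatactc

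The second highest stretch lay in tef103, 1 of 3 genes for translation elongation factor EF-1 alpha, all of which had chosen windows. Their coding sequences of 1383 bp were identical at 1358 positions, with 98.6% to 98.9% identity between pairs. The last 120 bases before the stop codon are printed here because they hold 10 of the 25 positions that differ, and capitals mark the positions at which the 3 genes differ. They are chrIII:268100-268219 for tef101, chrI:4096462-4096581 for tef102 and chrII:626109-626228 for tef103, each on the coding strand.
tef101: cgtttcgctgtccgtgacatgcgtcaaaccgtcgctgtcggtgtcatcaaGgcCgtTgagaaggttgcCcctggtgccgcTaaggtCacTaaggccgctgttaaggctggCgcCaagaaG
tef102: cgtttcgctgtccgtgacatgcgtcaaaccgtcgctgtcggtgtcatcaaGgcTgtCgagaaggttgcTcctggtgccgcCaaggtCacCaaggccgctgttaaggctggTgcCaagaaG
tef103: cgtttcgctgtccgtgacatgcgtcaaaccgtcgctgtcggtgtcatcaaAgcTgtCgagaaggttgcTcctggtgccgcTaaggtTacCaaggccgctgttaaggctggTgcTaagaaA

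The other windows printed here lie in coding sequence and stand for the kinds of sequence found among the chosen windows. In ubi4, the polyubiquitin gene, a unit of 228 bp repeats, and the capitals in chrII:1044901-1045100 mark the 2 bases that differ in the next unit. In gsf2, the gene for a galactose-specific flocculin, a unit of 234 bp repeats, and the capital in chrIII:962801-963000 marks the 1 base that differs in the next unit. The window of pma1, chrI:3874401-3874600, holds no 50 bp sequence found elsewhere, and its capitals mark G and C, which made up 48.5% of it. All 3 are on the coding strand.
ubi4: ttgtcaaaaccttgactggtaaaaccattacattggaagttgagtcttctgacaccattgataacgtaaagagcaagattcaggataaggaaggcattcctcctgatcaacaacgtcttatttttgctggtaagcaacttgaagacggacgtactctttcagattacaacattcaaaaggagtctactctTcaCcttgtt
gsf2: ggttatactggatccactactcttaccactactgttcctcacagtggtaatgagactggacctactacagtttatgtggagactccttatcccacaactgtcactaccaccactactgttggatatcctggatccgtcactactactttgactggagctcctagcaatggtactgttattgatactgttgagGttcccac
pma1: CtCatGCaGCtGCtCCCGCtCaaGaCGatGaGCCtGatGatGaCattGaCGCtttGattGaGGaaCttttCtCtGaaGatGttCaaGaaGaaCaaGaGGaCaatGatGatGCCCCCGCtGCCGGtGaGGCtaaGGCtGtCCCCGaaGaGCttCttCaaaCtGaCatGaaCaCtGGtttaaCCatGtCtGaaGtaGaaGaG

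In the window between fil1 and gir2, levels were 1.75, 1.82 and 1.49 in low-phosphate Myo1-GFP, 2.48, 2.01 and 3.67 in high-phosphate Myo1-GFP, 2.47 and 1.78 in low-phosphate NoIP and 3.48 and 2.12 in high-phosphate NoIP. The shallow high-phosphate Myo1-GFP library and high-phosphate NoIP replicate 1 were the highest. The windows over the 3 rRNA copies had mean levels of 4.87 to 4.99 in Myo1-GFP and 4.87 to 5.02 in NoIP. In those windows the same libraries were highest, at 6.44 to 6.45 in high-phosphate Myo1-GFP replicate 3 and 6.63 to 6.79 in high-phosphate NoIP replicate 1. On the gir2 side the last chosen window, at chrIII:815101-815300, had mean levels of 1.60 in Myo1-GFP and 1.86 in NoIP, and the next window, 100 bp further, had 0.20 in Myo1-GFP and 0.16 in NoIP. How reads that match several places were treated is not given in the sources used here, and the part of the rRNA match in this signal was not tested.

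**Figure D1:**
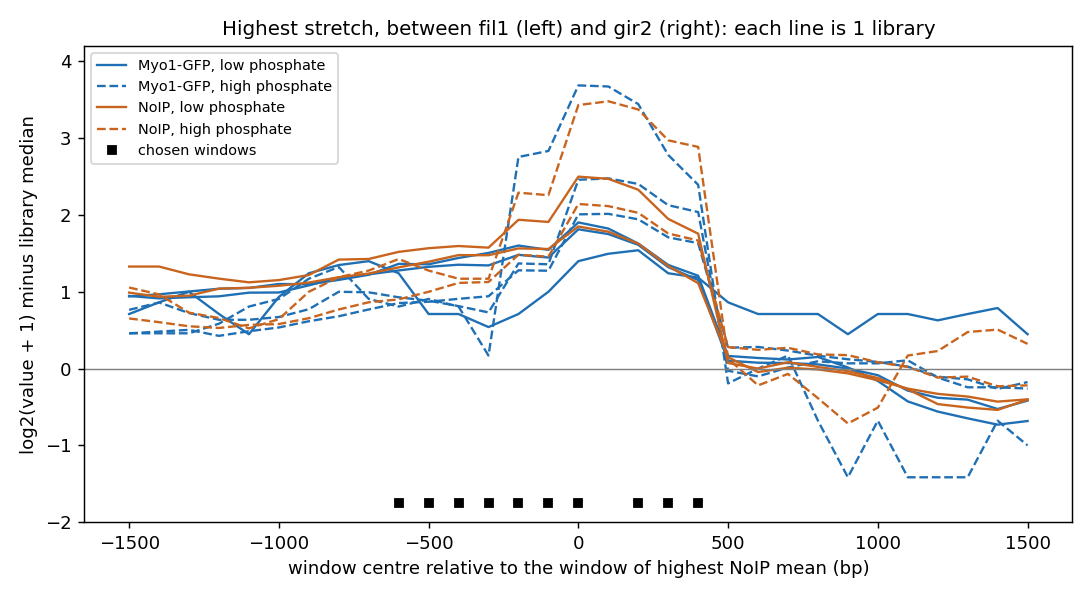
Level in each library (log2(value + 1) minus the library median) against the distance in bp from the window of highest NoIP mean, across fil1 on the left and gir2 on the right, with 1 line per library and black squares for the chosen windows. The 6 Myo1-GFP libraries span 1.40 to 3.69 and the 4 NoIP libraries 1.85 to 3.43 at 0 bp, and all 10 are lower at 500 bp than at 400 bp on the gir2 side.

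The list by number of chosen windows began with pma1, which encodes the proton ATPase of the plasma membrane and had 44 chosen windows out of the 45 that carry its ID. Its chosen windows averaged 1.58, 1.72 and 1.20 in low-phosphate Myo1-GFP, 1.28, 1.44 and 1.83 in high-phosphate Myo1-GFP, 2.01 and 1.62 in low-phosphate NoIP and 1.93 and 1.64 in high-phosphate NoIP. Low and high phosphate overlapped in both kinds of library. Next came pfl2, whose product resembles flocculins, with 39 windows, fhn1, a plasma membrane organization protein, with 26, and but2 with 26. Other membrane and cell wall genes among the first 20 were pil1, the core protein of eisosomes, with 19 windows, psu1, a cell wall protein, with 15, vht1, a biotin transporter, with 14, and gsf2 and the cell wall gene ecm33 with 13 each.

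The rest of the first 20 were met26, which makes methionine from homocysteine, with 25 windows, tef3, translation elongation factor eEF3, with 23, and sfp1, a predicted transcription factor, with 23. The aldehyde dehydrogenase gene atd1 had 18, tef103 had 16, and sks2, a ribosome-associated Hsp70 chaperone, had 16. The glycerol-3-phosphate dehydrogenase gene gpd1 had 14, the RNA helicase gene sum3 had 14, the cyclin gene pas1 had 14, ubi4 had 13 and lys4, homocitrate synthase of lysine synthesis, had 13. Together the first 20 genes held 398 chosen windows, or 39.6%. The limit of 20 falls within 7 genes of 13 windows each, which were ordered by their highest NoIP mean, and mcp60, gas1 and hsp90 with as many windows fell just below it.

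In 18 of these 20 genes the Myo1-GFP mean lay below the NoIP mean, a direction that the choice by high NoIP values favours. In met26 the chosen windows averaged 1.48, 1.68 and 0.56 in low-phosphate Myo1-GFP, 1.47, 1.39 and 1.63 in high-phosphate Myo1-GFP, 1.96 and 1.50 in low-phosphate NoIP and 2.02 and 1.55 in high-phosphate NoIP. The shallow low-phosphate library was the lowest of the 10. In fhn1 they were 1.85, 1.82 and 1.46 in low-phosphate Myo1-GFP, 0.76, 1.03 and 0.996 in high-phosphate Myo1-GFP, 1.97 and 2.04 in low-phosphate NoIP and 1.71 and 1.52 in high-phosphate NoIP. The groups did not overlap by phosphate in either kind of library. In gsf2 they were 1.16, 1.27 and 2.83 in low-phosphate Myo1-GFP, 1.93, 1.23 and 3.64 in high-phosphate Myo1-GFP, 1.65 and 1.20 in low-phosphate NoIP and 2.61 and 1.15 in high-phosphate NoIP. Here both shallow libraries stood highest.

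**Figure D2:**
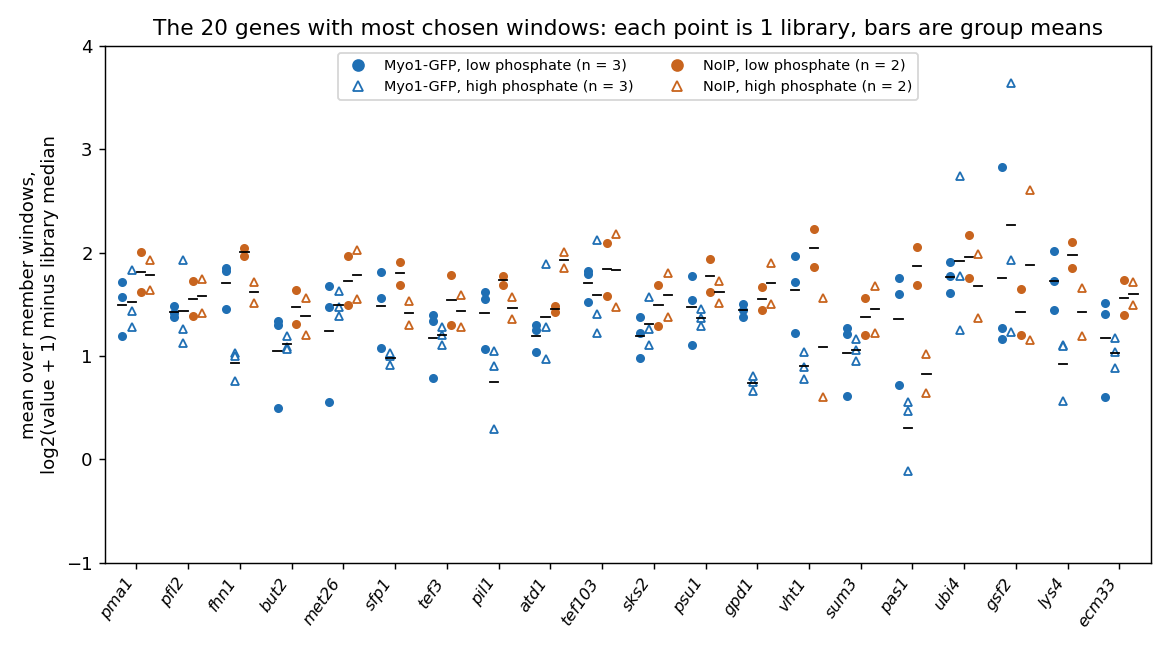
Mean level over the chosen windows of each of the 20 genes with most chosen windows (log2(value + 1) minus the library median), with 1 point per library, filled circles for low and open triangles for high phosphate, Myo1-GFP in blue and NoIP in orange, and bars for group means. Low-phosphate Myo1-GFP lies above high-phosphate Myo1-GFP without overlap in fhn1, sfp1, pil1, gpd1, vht1, pas1 and lys4. By means over all windows of a gene, 9.19% of all genes lay above in this way and 8.19% below. The gene gsf2 has the widest spread, 1.16 to 3.64 in Myo1-GFP.

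At the best window of each of the 5 highest stretches, the mean Myo1-GFP levels were 2.21 at fil1 and gir2, 1.89 in tef103, 1.35 in fhn1, 2.17 in ubi4 and 1.75 in pma1. The mean NoIP levels there were 2.48, 2.20, 2.10, 2.05 and 2.02. Of these 5, ubi4 had the higher value in Myo1-GFP, but not over the 4 deeper Myo1-GFP libraries, where it was at 1.88. The highest Myo1-GFP means at a best window were 2.24 in gsf2, 2.21 at fil1 and gir2 and 2.17 in ubi4. The first place of gsf2 rested on the shallow libraries, at 3.10 in low and 3.98 in high phosphate. Over the 4 deeper Myo1-GFP libraries gsf2 was at 1.59 and ranked 8 of 152, below fil1 and gir2 at 2.05, ubi4 at 1.88 and tef103 at 1.77. The lowest means were 0.27 in mae2, malic enzyme, 0.40 in pas1 and 0.42 in ppe1, a protein phosphatase gene. These lows also rested on the shallow libraries, at least 1 of which read below 0 at each of these windows. Over the 4 deeper libraries, in a comparison added after the data were seen, mae2 was at 1.12, pas1 at 1.17 and ppe1 at 0.80, and the lowest of all were Tf2-13 at 0.75, Tf2-5 at 0.76 and Tf2-9 at 0.79.

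Several groups of genes were looked up by list. Of 13 translation factor genes measured, 8 had a chosen window, as did 7 of 17 genes of glycolysis and fermentation, 7 of 21 genes of amino acid and one-carbon metabolism and 5 of 17 heat shock and chaperone genes, beside 3.98% of all genes. The rule chose 1% of all windows, beside which the window shares of the lists can be read. The translation factors were tef101, tef102, tef103, tef3, eft202, tif1, sum3 and tif51, and 28.6% of their windows were chosen. The glycolytic genes were fba1, tdh1, pgk1, eno101, pyk1, pdc101 and adh1, with 20.3% of the windows of the list. The chaperones were hsp90, ssa2, sks2, bip1 and mcp60, and the amino acid genes were met26, sam1, ilv5, leu2, lys3, lys4 and shm1. Ribosomal protein genes had a chosen window in 16 of 118 cases (13.6%), and 40 of their windows, or 3.71%, were chosen.

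The shares of the other lists were 25% or less, on small counts. Transporters and pumps had 2 of 19 (10.5%), pma1 and the hexose transporter gene ght8. Core histones had 2 of 8 (25%), htb1 and hht2, and meiotic genes 1 of 13 (7.69%), mei4 with a single window. That window lay in a stretch shared with act1, whose best window was in act1, and all windows of mei4 averaged 0.38 in NoIP. Of 19 actin patch genes, among which Myo1 acts, act1, actin itself, alone (5.26%) had chosen windows, 12 in number. None of 11 phosphate genes had one, too few genes to read against 3.98%. The gene pho841 lies outside that list, was picked after its values were seen, and had 3. Across all measured genes of a list, the median gene level was 0.84 in Myo1-GFP and 1.03 in NoIP for translation factors, 0.64 in Myo1-GFP and 0.77 in NoIP for glycolysis, and 0.18 in Myo1-GFP and 0.21 in NoIP for phosphate genes. For all genes it was -0.03 in Myo1-GFP and -0.01 in NoIP.

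Small structural RNAs were few in number but often chosen. Of 22 small nucleolar RNA genes, 7 had chosen windows: both U3 genes snu3 and snu32, snoU14, snoR69b, snR93, sno12 and snR30. Their 17 windows were 23.6% of the small nucleolar RNA windows, beside 0.980% of protein-coding windows. Some of these genes shared a stretch with a protein-coding gene. The best window lay in that neighbour for snu32 with grx4 and for snR30 with pdi4. It lay in the small nucleolar RNA gene for snoU14 with sol1 and for snR93 with dis2. The stretches of snu3, snoR69b and sno12 carried no other gene ID. Of 5 small nuclear RNA genes, snu2 (U2) and snu5 (U5), both parts of the spliceosome, had 7 windows, 24.1% of that class. The highest was snoU14, with levels of 1.79, 1.81 and 0.60 in low-phosphate Myo1-GFP, 1.13, 1.50 and 2.44 in high-phosphate Myo1-GFP, 2.27 and 1.76 in low-phosphate NoIP and 1.71 and 1.14 in high-phosphate NoIP. The 2 shallow libraries were its lowest and its highest.

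The chosen windows lay towards the ends of genes. Of the 981 in protein-coding genes, 397 (40.5%) had their centre past the stop codon, against 18.3% of the protein-coding windows that could be chosen. Another 500 (51.0%) had their centre in coding sequence, against 66.8%, and 84 (8.56%) before it, against 14.9%. Within coding sequence, split into 3 equal parts, 52.6% lay in the last part, against 32.9%, and 15% in the first part, against 33.4%. The windows past the stop codon had a median distance of 215.5 bp from it, and 295 of the 397 held no coding base. In fhn1 the stretch of 2700 bp ran far past a short coding sequence, from 526091 to 526642 on chromosome II. In pil1 the best window, at chrIII:351101-351300, held no coding base.

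Stretches also joined at shared gene ends. Of 152 stretches, 46 carried more than 1 gene ID. Of these, 36 joined 2 genes that face each other, 9 joined 2 genes on the same strand, 1 spanned 3 or more genes and 0 joined genes that face away from each other. Among all 4698 pairs of neighbouring genes that could be chosen, 1267 faced each other, 1267 faced away and 2164 lay on the same strand. Examples are fil1 with gir2, rad26 with atd1, and dus3 with sfp1.

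Around the stop codon the 35 genes with at least 10 chosen windows had their highest mean level at 300 bp before it in Myo1-GFP, at 1.20. In NoIP it was at 100 bp past the stop codon, at 1.54, but NoIP was nearly flat there. From 300 bp before to 300 bp past the stop codon NoIP stayed between 1.51 and 1.54. The Myo1-GFP mean includes the 2 shallow libraries, and the place of its peak cannot be read apart from them. At 200 bp past the stop codon the deeper libraries were at 1.43 and 1.52 in low and 1.02 and 1.14 in high phosphate. The shallow libraries were at 0.58 in low and 0.68 in high phosphate there. In the 4499 genes with no chosen window levels were far lower, and both kinds of library peaked past the stop codon, with 0.0955 at 100 bp past the stop codon in Myo1-GFP and 0.233 at 200 bp past it in NoIP. In these other genes the level at 200 bp was 0.263, 0.261 and -0.238 in low-phosphate Myo1-GFP, 0.0875, 0.185 and -0.0295 in high-phosphate Myo1-GFP, 0.269 and 0.302 in low-phosphate NoIP and 0.151 and 0.208 in high-phosphate NoIP. The 2 shallow libraries were the only ones below 0. In the 35 genes the 2 shallow libraries likewise stood apart. Their level at 200 bp past the stop codon minus that at 600 bp before it was -0.44 in low and -0.64 in high phosphate, beside 0.22, 0.19, -0.05 and 0.15 in the deeper Myo1-GFP libraries and 0.19, 0.28, -0.24 and 0.10 in the NoIP libraries.

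**Figure D3:**
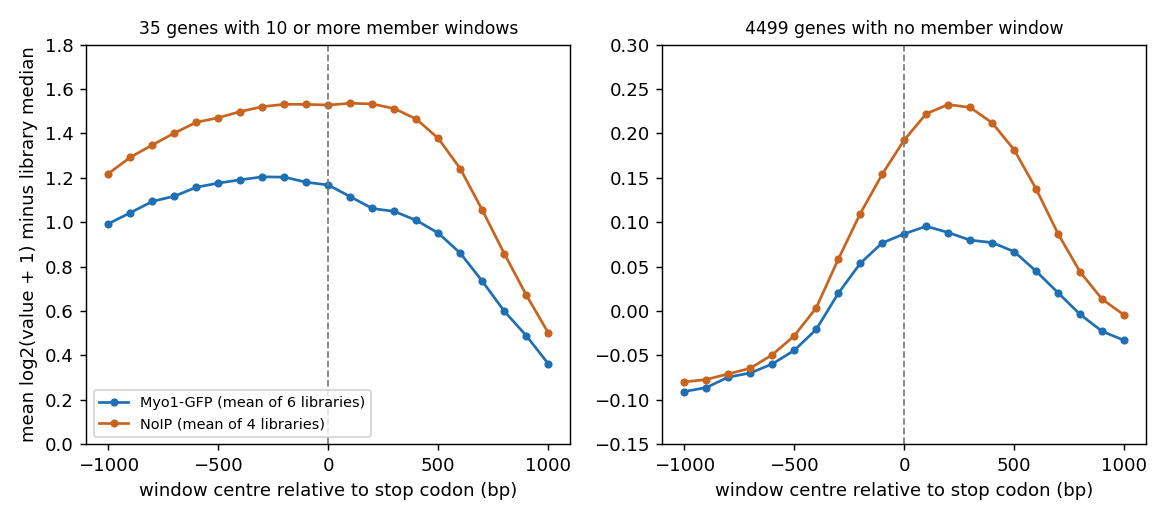
Mean level of Myo1-GFP (blue, 6 libraries) and NoIP (orange, 4 libraries) by distance of the window centre from the stop codon in bp, for the 35 genes with at least 10 chosen windows on the left and the 4499 genes with none on the right. The vertical scales differ, and NoIP peaks at 1.54 on the left and 0.233 on the right, both past the stop codon. On the left NoIP is nearly flat from 300 bp before to 300 bp past the stop codon, at 1.51 to 1.54.

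In base composition the chosen windows split by place. Those wholly in coding sequence, 409 in number, had a median GC content of 47%, against 39.5% for all such windows, as in the printed pma1 window. Over all chosen windows the median was 39%, against 37%. Of the 3111 fully coding windows at or above the median GC of the chosen ones, 216 (6.94%) were chosen, against 0.775% of all 52788 fully coding windows. A repeated 50 bp sequence occurred in 127 chosen windows (12.6%), against 1.99% of all windows that could be chosen. In 82 of these the other copy lay at another place, which includes the 3 EF-1 alpha genes and 12 Tf2 retrotransposons. In 44 it lay in the same gene, in fhn1, gsf2, pfl2 or ubi4, and in 1, at fil1, it lay in an rRNA gene. None shared a 50 bp sequence with the mitochondrial genome. Few lay within 500 bp of a tRNA or rRNA gene, 17 of 1005 (1.69%), against 0.627%.

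The question asked of Myo1-GFP was whether the same windows also stood out there. They did, in every library. The median level over the 1005 windows was 1.31, 1.43 and 0.93 in low-phosphate Myo1-GFP and 1.06, 1.08 and 1.25 in high-phosphate Myo1-GFP, beside 1.67 and 1.39 in low-phosphate NoIP and 1.61 and 1.27 in high-phosphate NoIP. Other gene windows had medians between -0.03 and 0. Every chosen window lay above the library median in the 4 deeper Myo1-GFP libraries, and 87.2% and 94.8% did so in the shallow low- and high-phosphate libraries. Of the 1005, 692, 688 and 142 fell in the top 1% of gene windows of the low-phosphate Myo1-GFP libraries and 577, 702 and 263 in those of the high-phosphate Myo1-GFP libraries, where the background is 1% of windows. In the NoIP libraries themselves the counts were 690 and 642 in low phosphate and 562 and 733 in high phosphate. These last counts are set in part by the rule, which used the same libraries. Among the Myo1-GFP libraries the 2 shallow ones had the lowest counts.

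**Figure D4:**
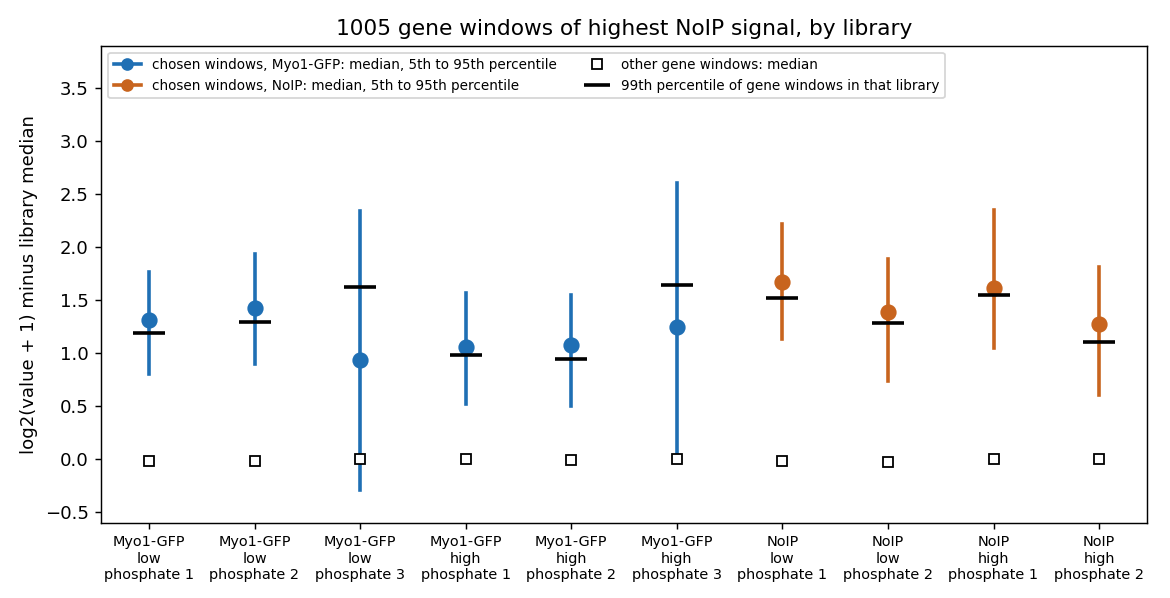
Level of the 1005 chosen windows in each library (log2(value + 1) minus the library median), with circles for the median, vertical lines for the 5th to 95th percentile, open squares for the median of other gene windows and black dashes for the 99th percentile of gene windows in that library. Chosen windows have medians of 0.93 to 1.43 in the 6 Myo1-GFP libraries and 1.27 to 1.67 in the 4 NoIP libraries, and other gene windows lie near 0 in all 10.

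A choice made from Myo1-GFP gave largely the same windows. The top 1% by the mean of all 6 Myo1-GFP libraries shared 687 windows with the chosen set, 68.4% of each, and the top 1% by the 4 deeper Myo1-GFP libraries shared 847, or 84.3%. The top 1% by the 3 low-phosphate Myo1-GFP libraries shared 581 (57.8%) and that by the 3 high-phosphate Myo1-GFP libraries 564 (56.1%). The top 1% by low-phosphate NoIP and the top 1% by high-phosphate NoIP, of 2 libraries each, shared 471 (46.9%) with each other.

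Since high NoIP values chose the windows, a lower Myo1-GFP value there is partly built in. The 2 kinds of library were therefore also compared where the libraries that chose the windows were left out, as a description with no test. The NoIP libraries read there were of the same kind as those that chose, so a lower Myo1-GFP value stays partly favoured. Windows chosen by high-phosphate NoIP and read in low phosphate had a median Myo1-GFP minus NoIP difference of -0.23, and 830 (82.6%) were below 0, against 55% of all gene windows. All Myo1-GFP libraries lay below all NoIP libraries in 131 of them (13.0%), against 10.5%. Windows chosen by low-phosphate NoIP and read in high phosphate had a difference of -0.27, with 892 (88.8%) below 0, against 50.7%, and all Myo1-GFP below all NoIP libraries in 406 (40.4%), against 9.95%. Without the shallow libraries, a comparison added after the data were seen, the medians were -0.13 in low and -0.32 in high phosphate. In low phosphate 892 (88.8%) were then below 0, against 50.9% of all gene windows. In high phosphate 961 (95.6%) were, against 52.7%. The high-phosphate value was -0.15 without NoIP high phosphate replicate 1 and -0.44 without NoIP high phosphate replicate 2. The low-phosphate value was -0.0837 and -0.38 at the ends of its range when each library was left out in turn.

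Genes in which Myo1-GFP reached NoIP had chosen windows of mostly repeated sequence. In 14 of the 188 genes the mean Myo1-GFP level over the chosen windows was at or above that of NoIP. The chosen windows of all 14 had a median of at least 50% repeated sequence, as did those of 22 of the 188. The 14 genes were ubi4, gsf2, pvg2 and 11 Tf2 retrotransposons. This rested on the shallow libraries. With the 4 deeper Myo1-GFP libraries, 0 of 188 genes reached NoIP, and gsf2 was at -0.25 relative to NoIP, ubi4 at -0.18 and Tf2-7 at -0.49. Myo1-GFP below NoIP is the direction that the choice by high NoIP values favours. In the 2 shallow libraries gsf2 was at 1.58, ubi4 at 0.44 and Tf2-7 at 1.42 relative to NoIP. The part of sequencing depth in this split was not tested.

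Whether phosphate changed Myo1-GFP signal in these windows was tested, and no Myo1-GFP library entered the choice. The fit did take its estimate of the spread from all 10 libraries, including the NoIP libraries that chose the windows. Phosphate differences called in Myo1-GFP mostly had the same sign in NoIP, as given below. The choice may thus bear on the shares of chosen windows, which are set beside all windows as a description. By limma with Benjamini-Hochberg adjustment over 126242 windows, 0 of 1005 chosen windows passed an adjusted p of 0.05, beside 0.0174% of all windows, and 0 of 188 genes passed, beside 0.131% of 6115 genes. At an unadjusted p under 0.05 there were 213 chosen windows, beside 7.99% of all. Of these, 164 (16.3%) were higher in low phosphate, beside 5.24% of all, and 49 (4.88%) lower, beside 2.76%. After quantile normalization in place of median centring, this split was 92 higher, beside 6.27% of all, and 81 lower, beside 4.27%, 173 in all, beside 10.5%. At the level of genes, 30 had an unadjusted p under 0.05, beside 10.2% of all, of which 23 were higher, beside 7.05% of all genes, and 7 lower, beside 3.14%. The median difference over the 188 genes was -0.01, beside -0.02 over all genes. Without the shallow libraries it was 0.12, beside 0.02 over all genes, and with array weights 0.11, beside 0.01. Every low-phosphate Myo1-GFP library lay above every high-phosphate one in 167 chosen windows (16.6%), beside 7.38% of all, and below in 75 (7.46%), beside 7.35%. By genes these were 28, beside 9.19%, and 14, beside 8.19%. In NoIP, which chose the windows, the same held in 321 chosen windows above, beside 24%, and 156 below, beside 21.8%, and in 64 genes above, beside 28.9%, and 31 below, beside 19.8%.

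The count of calls depended on the 2 shallow libraries. Without them 28 genes passed, beside 5.9% of all genes. Of these, 25 were higher in low phosphate, beside 5.56%, and 3 lower, beside 0.343%. The 3 were hsp90, ssa2 and rlc1, of which hsp90 and rlc1 share a stretch. Neighbouring genes that share a stretch are counted separately in all these counts, so genes called are not always separate places. With array weights, by which limma gives noisy libraries less say, 56 genes passed, beside 14%, with 49 higher, beside 11.8%, and 7 lower, beside 2.17%. Leaving out only low-phosphate Myo1-GFP replicate 3 gave 13 genes, beside 1.41%, with 12 higher, beside 1.32%, and 1 lower, beside 0.0818%.

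By windows, 169 passed without both shallow libraries, beside 3.93%, with 143 higher, beside 3.78%, and 26 lower, beside 0.151%. With array weights 351 passed, beside 8.07%, with 311 higher, beside 7.28%, and 40 lower, beside 0.788%. Without low-phosphate Myo1-GFP replicate 3, 12 passed, beside 0.492%, with 11 higher, beside 0.488%, and 1 lower, beside 0.00396%. After quantile normalization the balance of calls turned: 19 chosen windows passed, beside 0.431% of all, with 2 higher, beside 0.391%, and 17 lower, beside 0.0404%. Under that setting 1 gene passed, beside 0.72% of all genes, and it was lower, beside 0.0654%, with 0 higher, beside 0.654%.

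The smallest adjusted p belonged to hsp90, the Hsp90 chaperone gene. Over all windows with its ID it averaged 0.34, 0.25 and 0.22 in low-phosphate Myo1-GFP, 1.06, 1.38 and 1.22 in high-phosphate Myo1-GFP, 0.61 and 0.26 in low-phosphate NoIP and 1.93 and 1.63 in high-phosphate NoIP. Low phosphate lay below high phosphate without overlap in both kinds of library. The Myo1-GFP difference was -0.95 ± 0.15 (SE, n = 3 each, limma adjusted p = 0.0579), and adjusted p ran from 0.000401 to 0.295 over the alternatives. The gene ssa2, an Hsp70 chaperone, averaged 0.28, 0.20 and 0.37 in low-phosphate Myo1-GFP, 0.97, 1.34 and 1.85 in high-phosphate Myo1-GFP, 0.59 and 0.24 in low-phosphate NoIP and 2.10 and 1.72 in high-phosphate NoIP. Its groups did not overlap either, and its Myo1-GFP difference was -1.11 ± 0.22 (SE, n = 3 each, limma adjusted p = 0.109, with 0.000714 to 0.358 over the alternatives). The 3 windows with the smallest p lay in the same genes: chrIII:2059001-2059200 and chrIII:2059101-2059300 in ssa2, at -1.41 and -1.22 (limma adjusted p = 0.0677 and 0.0802), and chrI:3889601-3889800 in hsp90, at -1.31 (limma adjusted p = 0.0812).

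On the higher side were SPBC19C7.04c, gpd1 and snu2. SPBC19C7.04c, which had 1 chosen window, averaged 1.25, 1.38 and 0.75 in low-phosphate Myo1-GFP, 0.18, 0.32 and 0.11 in high-phosphate Myo1-GFP, 1.60 and 1.39 in low-phosphate NoIP and 0.49 and 0.52 in high-phosphate NoIP. Low phosphate was above high phosphate in every library of both kinds, and the Myo1-GFP difference was 0.93 ± 0.17 (SE, n = 3 each, limma adjusted p = 0.0829, with 0.000129 to 0.333 over the alternatives). The gene gpd1, which makes the glycerol-3-phosphate that fission yeast turns into glycerol under osmotic stress, averaged 1.29, 1.25 and 1.45 in low-phosphate Myo1-GFP, 0.60, 0.64 and 0.39 in high-phosphate Myo1-GFP, 1.29 and 1.50 in low-phosphate NoIP and 1.73 and 1.40 in high-phosphate NoIP. The Myo1-GFP libraries did not overlap by phosphate and the NoIP libraries did. The Myo1-GFP difference was 0.78 ± 0.15 (SE, n = 3 each, limma adjusted p = 0.0923, with 0.00114 to 0.330 over the alternatives), beside -0.17 in NoIP. For snu2 the Myo1-GFP difference was 0.89 ± 0.19 (SE, n = 3 each, limma adjusted p = 0.111, with 0.00683 to 0.422 over the alternatives).

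An interaction term in the same limma fit set the phosphate difference of Myo1-GFP against that of NoIP. It uses the 4 NoIP libraries that chose the windows, so its values there are a description. No chosen window and no gene passed an adjusted p of 0.05, as in the whole table. Counts at an unadjusted p are not set beside those of all windows, since the choice used part of the same values. The genes were gpd1, at 0.96 ± 0.24, and tdh1, glyceraldehyde-3-phosphate dehydrogenase, at 0.68 ± 0.26 (SE). Among the 49 genes called higher with array weights, 48 had the same sign in NoIP, beside 99.7% of all genes so called, and gpd1 was the exception. All 7 called lower did so as well, beside 94.0% of all genes so called. These were hsp90, ssa2, rlc1, pgk1, bip1, gar2 and gir2, of which rlc1 and hsp90 share a stretch. Among those called higher, isu1, rna4 and yos9 share a stretch, as do lys4 and SPBC1105.01.

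In the fit with all libraries none of the 188 genes passed, and differences between lists were not tested. Of the 7 glycolytic genes with a chosen window, 6 were lower in low-phosphate than in high-phosphate Myo1-GFP by their means, with a median difference of -0.40, and all 7 were so in NoIP, with a median of -0.59. Of these, pgk1, phosphoglycerate kinase, was called lower with array weights, beside 2.17% of all genes. Over the whole list, 12 of 17 glycolytic genes were lower in Myo1-GFP and 13 of 17 in NoIP, with 3 called lower and 2 higher. All 5 chaperone genes had lower means in low phosphate, with medians of -0.44 in Myo1-GFP and -0.66 in NoIP. With array weights 3 were called lower, beside 2.17% of all genes. The whole chaperone list went the same way, with 15 of 17 genes lower in Myo1-GFP, 16 of 17 in NoIP and 8 called lower. Of the 7 amino acid genes, 5 had higher means in low phosphate, with a median of 0.29 in Myo1-GFP and 0.18 in NoIP. With array weights 3 were called higher, beside 11.8% of all genes. In the whole amino acid list 13 of 21 were higher in Myo1-GFP and 16 of 21 in NoIP, with 6 called higher. The 16 ribosomal protein genes had medians of -0.10 in Myo1-GFP and 0.05 in NoIP. With array weights 0 of them were called, too few genes to read against 14% of all genes. The median over all 6115 genes was -0.02 in Myo1-GFP and 0.02 in NoIP. Of all these genes, 3320 were lower in low phosphate in Myo1-GFP and 2668 in NoIP.

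**Figure D5:**
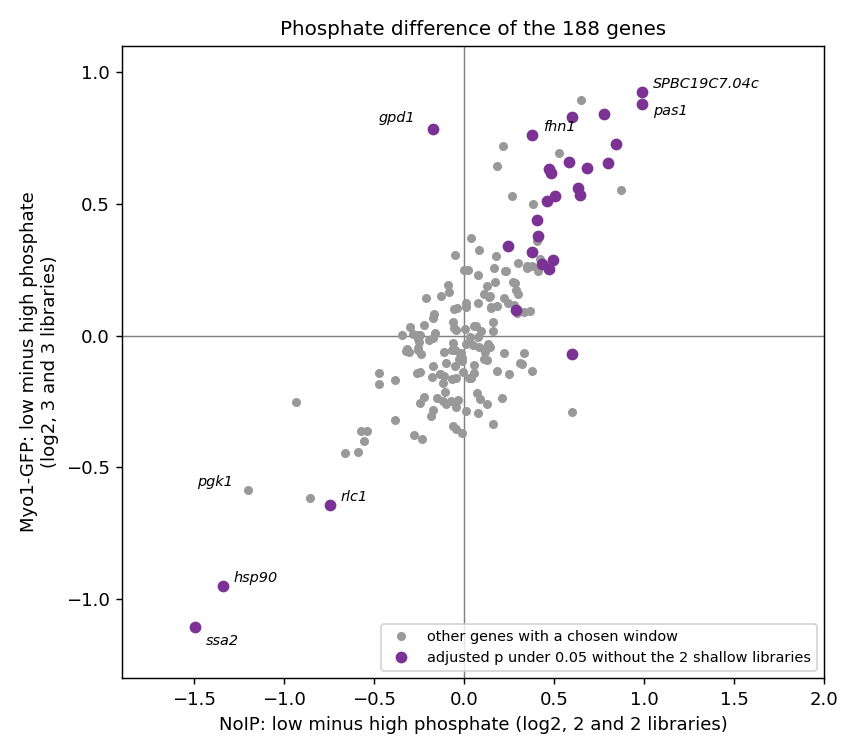
Low minus high phosphate difference (log2) of the 188 genes in Myo1-GFP (vertical, 3 and 3 libraries) against NoIP (horizontal, 2 and 2 libraries), with purple points for the 28 genes past an adjusted p of 0.05 without the 2 shallow libraries. Both axes are differences of gene means, hsp90 lies at -0.95 in Myo1-GFP and -1.34 in NoIP, and gpd1 lies at 0.78 in Myo1-GFP and -0.17 in NoIP.

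Not all calls without the shallow libraries had the same sign with them. The small nuclear RNA gene snu5 averaged 1.18, 1.34 and -0.47 in low-phosphate Myo1-GFP, 0.48, 0.70 and 1.09 in high-phosphate Myo1-GFP, 1.53 and 1.31 in low-phosphate NoIP and 0.78 and 0.87 in high-phosphate NoIP. The shallow low-phosphate library was the lowest and lay far from the other 2. Its difference was 0.68 without the shallow libraries (limma adjusted p = 0.0252) and -0.07 ± 0.42 with all 6 (SE, n = 3 each, limma adjusted p = 0.953).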

How the data were processed

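The deposited table held, per the labels, ChIP-seq signal of 10 libraries in windows of 200 bp every 100 bp. The authors trimmed reads with Trim Galore 0.3.8 and aligned them with Bowtie2 2.2.4, per their processing notes, to build ASM294v2. Each deposited signal value was a whole multiple of a step fixed per library, and column sums were nearly equal between libraries of unequal depth, so the values had been scaled and no count test was used. Values were taken as log2(value + 1) minus the library median. Gene models and sequences came from RefSeq ASM294v3, whose chromosomes have the same lengths, and 99.7% of gene IDs matched. Fits used limma 3.58.1 (R 4.3.3) with a trend, 1 mean per group, on windows above 0 in at least 2 libraries, and on gene means. Tables were made with Python 3.11.15, numpy 2.4.6, pandas 2.3.3 and matplotlib 3.10.9.

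Named genes were the first 20 by chosen windows, those of the 5 highest stretches, of the 3 highest and 3 lowest Myo1-GFP stretches and of the windows at the limit, list members, and the genes of smallest p. Members and lists were chosen with earlier results of these data known. A repeat is a 50 bp sequence found more than once on chromosomes I to III. The stretch shared with rRNA was extended without gaps at 1 for a match and -3 for a difference. No column was left out. Other scalings, pseudocounts, filters, thresholds and sets of libraries were tried.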

Additional observations from a re-analysis of the deposited data

How the results depend on the processing

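The number of chosen windows was 1005 at 1% and 502 at 0.5%, and 865 to 897 of the 1005 were chosen again when a NoIP library was left out. The median Myo1-GFP level was 1.12, 1.31 at 0.5%, and 1.08 to 1.19 with a library left out. Chosen windows called between low and high phosphate by limma were 0, and 19 after quantile normalization (2 higher, 17 lower), 351 with array weights (311 higher, 40 lower), 169 without the shallow libraries (143 higher, 26 lower) and 0 to 12 with a library left out. Genes called were 0, and 1, 56, 28 and 0 to 13 under those settings. With the replicate number as a block 0 windows and 0 genes were called. After the group mean was subtracted from each library, same-numbered Myo1-GFP libraries of low and high phosphate correlated at 0.07, 0.16 and 0.14. Other number pairs ran from -0.17 to 0.18, so the numbers were not taken to pair the samples. In NoIP the values were 0.37 for the same number and -0.37 otherwise, where 2 libraries per group force equal size and opposite sign. The Myo1-GFP minus NoIP difference in high phosphate was -0.27, -0.32 without the shallow libraries, and -0.44 to -0.15 with a library left out. The difference in low phosphate was -0.23, and -0.38 to -0.08 with a library left out. The share of protein-coding windows past the stop codon was 40.5%, and 35.4% at 0.5%, 32.8% with high-phosphate NoIP only and 43.9% without repeats. These shares and the Myo1-GFP minus NoIP alternatives were chosen after seeing the data. The cause of these shifts was not tested, and with a median of 8 and 11 reads per window the shallow libraries limit every Myo1-GFP value.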
